A study of Homo sapiens with 4 samples.

Results

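SCD, MSMO1, DGAT2 and GRAMD1B are 4 genes of fatty acid, triglyceride and sterol metabolism among 858 that the authors' deposited table lists in a comparison of MiaPaca-2 cells carrying a hairpin against PRMT1 (shPRMT1) and cells carrying a non-targeting hairpin (shNTC). They were taken from that table by name, with their listing already known, so the values below describe them and no test was run on them. MiaPaca-2 is an established human pancreatic cancer line, and RNA from 2 shPRMT1 and 2 shNTC samples was sequenced. All samples share the cell line and the culture medium, and the labels give neither the time after hairpin delivery nor whether the replicates were separate cultures. The authors' p-values then cover no more than the spread between these samples, possibly a technical one. A single cell line and a single named PRMT1 hairpin limit what the comparison models. PRMT1 is the main enzyme placing asymmetric dimethyl groups on arginines. The table gives 1 ratio per gene, so values of single samples, their spread, the depth and the expression level of each gene were not analysed here, and the identity of the cells was not checked against marker levels.

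Fatty acids made in the cytosol are saturated until a desaturase in the endoplasmic reticulum introduces a double bond, and the resulting monounsaturated acids are preferred building blocks of membranes and of stored fat. Triglycerides are completed by acyltransferases that add the last fatty acid to diacylglycerol, and the product is stored in lipid droplets. Cholesterol is built from acetyl-CoA through lanosterol, whose surplus methyl groups are removed on the way, and cells sense its amount in the endoplasmic reticulum, where sterol shortage releases the SREBP transcription factors. Cholesterol that has reached the plasma membrane returns to the endoplasmic reticulum through transfer proteins at membrane contact sites.

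Each gene stood for a different step of these routes, and the members did not share a direction. In the authors' deposited table the desaturase gene SCD and the cholesterol synthesis gene MSMO1 were listed lower in shPRMT1, as were 6.56% of the genes tested. The triglyceride synthesis gene DGAT2 and the sterol transfer gene GRAMD1B were listed higher there, as were 4.67% of the genes tested. The highest and the lowest of the 4 log2 fold changes lay 2.15 apart. By the adjusted p of the authors' deposited table, none of the 4 passed 0.05. That rule called 1 gene, or 0.0131% of the 7640 genes whose testing the adjusted values imply. All 4 had an unadjusted p under 0.05 because the table holds only genes under that threshold, and 11.2% of the genes tested were listed at that threshold. That count follows from how the members were chosen. The numerator of the ratio is not named in the header. It was read as shPRMT1 over shNTC because the authors' deposited table has PRMT1 at 0.356 (log2 −1.49, p = 0.0156, adjusted p = 0.411). With the opposite numerator all 4 directions would turn.

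The members listed lower are both enzymes of the endoplasmic reticulum, where DGAT2 and GRAMD1B are also found. Both lower members are textbook targets of SREBP, whose cofactor NF-Y binds CCAAT boxes. Sequence upstream of each was therefore examined for these motifs. RefSeq promoter windows on GRCh38.p14 were matched by symbol for 2 of the 4 genes, SCD and MSMO1. DGAT2 and GRAMD1B were not matched. Each stretch below begins 250 bases before the RefSeq start and stops before the first base annotated as transcript in GENCODE 29. Capitals mark CCAAT, or ATTGG where the box lies on the other strand. The SCD stretch is chr10:100346983-100347123 and the MSMO1 stretch is chr4:165327419-165327622, both on the plus strand and 5′ to 3′.
SCD: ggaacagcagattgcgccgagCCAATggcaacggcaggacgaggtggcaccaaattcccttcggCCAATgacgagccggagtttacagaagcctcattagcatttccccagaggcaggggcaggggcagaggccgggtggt
MSMO1: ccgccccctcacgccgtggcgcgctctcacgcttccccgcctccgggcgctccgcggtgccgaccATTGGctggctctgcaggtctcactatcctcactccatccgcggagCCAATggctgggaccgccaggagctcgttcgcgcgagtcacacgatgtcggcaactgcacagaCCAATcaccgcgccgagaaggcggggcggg

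Within the 250 bases, CCAAT was found on either strand 2 times for SCD, beginning 229 and 186 bases before the RefSeq start. For MSMO1 it was found 4 times, beginning 185, 139, 76 and 34 bases before it, the last of them beyond the printed stretch. Of all 35116 RefSeq windows of this length, 32.0% held at least 1 match, 9.53% at least 2 and 0.874% at least 4. Windows of genes listed lower held at least 2 matches in 12.0% of cases and windows of genes listed higher in 15.1%. At least 4 matches were in 1.97% of the windows of lower genes and in 1.99% of those of higher genes. The SREBP motif TCANNCCAC was not in either window on either strand, and 3.14% of all windows held it. Only this form of the motif was searched, so a site with other letters would have been missed. The E-box CACGTG, a palindrome that SREBP can also bind, was not in either window and was in 6.34% of all. The GC box GGGCGG was matched 2 times in each window, against at least 2 matches in 24.3% of all windows, 40.0% of those of lower genes and 43.2% of those of higher genes. Matches of different motifs can share letters at their edges. All are matches of letters in a short window and say nothing about binding.

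SCD (ENSG00000099194.5), stearoyl-CoA desaturase, converts stearoyl-CoA and palmitoyl-CoA to oleoyl-CoA and palmitoleoyl-CoA. The authors' deposited table gives it a ratio of 0.694, so the shPRMT1 level was 69.4% of the shNTC level (log2 fold change −0.53). Its p of 0.0482 ranked 827 of 858 in the authors' deposited table, close to the largest p listed, 0.0498. Its adjusted p was 0.442, a value that 54 genes share. By size SCD stood 92nd from the lowest, further from 0 than the typical lower gene, whose median the authors' deposited table puts at −0.28. Its size passed 0.5 on the log2 scale, as GRAMD1B's did, which 2.67% of the genes tested reached at an unadjusted p under 0.05. The gene lies on chromosome 10 and GENCODE 29 gives it 1 transcript of 5362 nt in 6 exons, of which 1077 nt are coding. The same annotation holds a processed pseudogene named SCDP1, and how the authors' counting treated reads shared with it is not given in the sources used here. SCD5, the other human stearoyl-CoA desaturase, was not in the table.

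MSMO1 (ENSG00000052802.8), methylsterol monooxygenase, is the oxygenase that starts the removal of the methyl groups of the sterol ring after the lanosterol demethylase CYP51A1 has acted. The authors' deposited table has it at a ratio of 0.827, or 82.7% of the shNTC level (log2 fold change −0.27, p = 0.0406, adjusted p = 0.432). That adjusted p is a tied value shared by 400 genes, among them GRAMD1B and the other genes given 0.432 below. MSMO1 stood 258th from the lowest, close to the −0.28 that is the median of all lower genes there. Of the 4 genes it had the log2 fold change nearest to 0. It is a gene of chromosome 4 with 5 annotated transcripts, the principal one having 6 exons and 2269 nt.

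DGAT2 (ENSG00000062282.10), diacylglycerol acyltransferase of the endoplasmic reticulum and lipid droplets, completes triglycerides and uses newly made monounsaturated fatty acids, the products of SCD. The authors' deposited table gave it a ratio of 1.35, 135% of the shNTC level (log2 fold change 0.43). Its p of 0.000779 was the 15th smallest of the 858 in the authors' deposited table, and it was the 1 member with p under 0.01, a threshold that 2.5% of the genes tested passed. Its adjusted p in the authors' deposited table was 0.308, a value that 48 genes share. By size it was only 115th from the highest, so its rank by p was far ahead of its rank by size. DGAT1, an unrelated enzyme with the same activity, and the acyltransferase relatives MOGAT1, MOGAT2, MOGAT3, AWAT1 and AWAT2 were not in the table. DGAT2 lies on chromosome 11, where exons of 2 antisense genes, AP001922.1 and AP003031.1, overlap its exons in GENCODE 29. Whether counting used strand is not given in the sources used here, so reads of these genes may not have been separated from those of DGAT2.

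GRAMD1B (ENSG00000023171.10), also called Aster-B, is anchored in the endoplasmic reticulum and carries cholesterol there from the plasma membrane. The authors' deposited table puts its ratio at 3.09 and its log2 fold change at 1.63. It had the largest difference of the 4 genes and the sixth highest value of all listed genes. It was the 1 member at 1 or more on that scale, which 0.759% of the genes tested reached at an unadjusted p under 0.05. Its p was 0.0422, ranked 741 of 858, and its adjusted p was 0.432 in the authors' deposited table. The order of GRAMD1B and DGAT2 by size was thus the reverse of their order by p. The expression level of GRAMD1B and the spread behind its ratio were not analysed here. The gene spans 269347 nt of chromosome 11 and has 18 annotated transcripts, of which 15 are coding, so a ratio for the whole gene does not say which transcript differed.

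**Figure D1:**
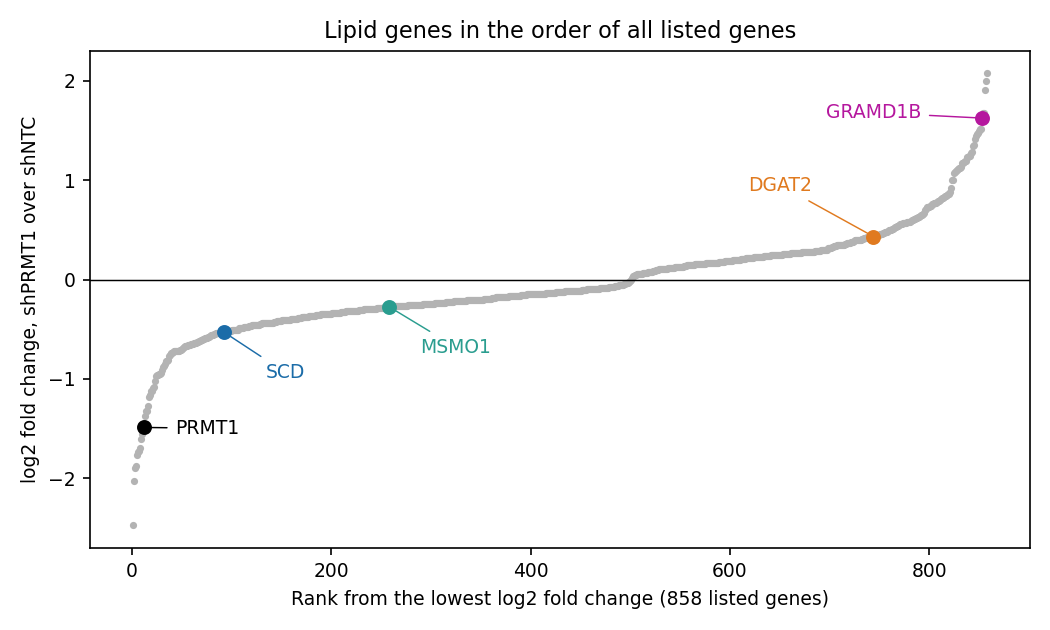
Each point is 1 of the 858 listed genes, placed by its rank from the lowest log2 fold change (x axis) and by its log2 fold change of shPRMT1 over shNTC (y axis), from the authors' deposited table. SCD (−0.53) and MSMO1 (−0.27) sit on the lower arm, DGAT2 (0.43) on the upper arm and GRAMD1B (1.63) near its top, with PRMT1 (−1.49) marked in black for the direction of the ratio.

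**Figure D2:**
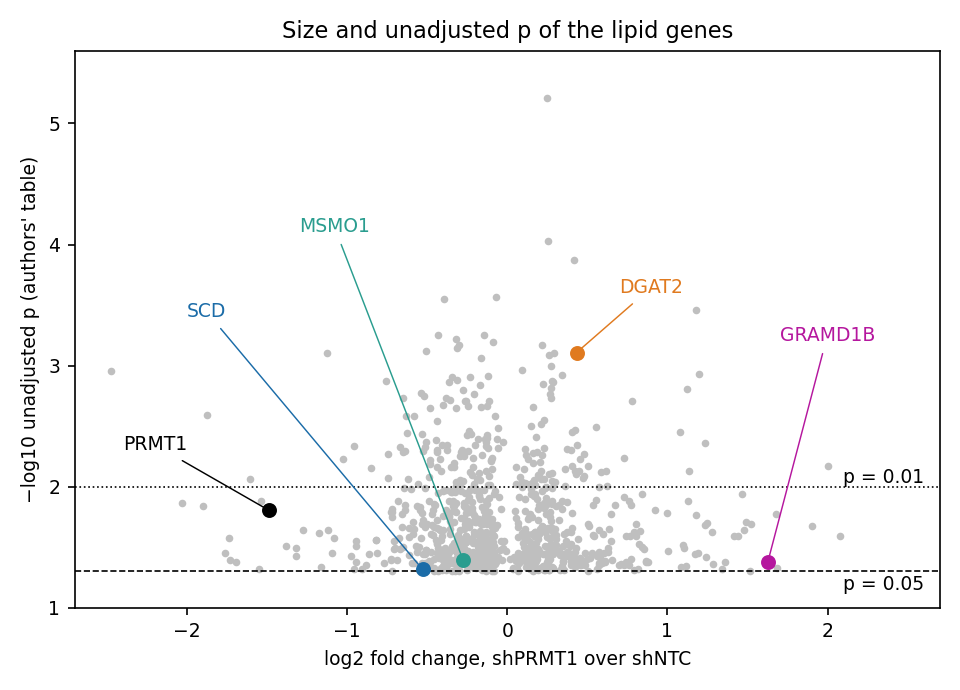
The x axis is the log2 fold change of shPRMT1 over shNTC and the y axis is −log10 of the unadjusted p, both from the authors' deposited table. Grey points are the other listed genes, and the lines mark p of 0.05 (dashed) and 0.01 (dotted). Of the members, DGAT2 lies above the dotted line, and SCD, MSMO1 and GRAMD1B lie close to the dashed line.

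The closest relative of a member in the table was GRAMD1A, or Aster-A, a sterol transfer protein of the same family. For GRAMD1A (ENSG00000089351.10) the authors' deposited table gives a ratio of 1.28, 0.35 on the log2 scale (p = 0.0422, adjusted p = 0.432). Both Aster genes were thus listed higher, GRAMD1B with the larger value. The third Aster gene, GRAMD1C, was not in the table. Over all genes tested, 11.2% were listed. NPC2, the soluble protein that hands cholesterol to the lysosomal membrane for export, was the remaining listed gene of 26 in the sterol transfer list. The authors' deposited table lists it lower (−0.27 on the log2 scale, p = 0.00159, adjusted p = 0.308).

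Other genes of these routes were taken from 12 lists of lipid metabolism with 278 genes. The lists are a selection, and genes of the deposited table outside them were not counted. The authors' deposited table held 24 of them (8.63%), against 11.2% of all genes tested, and how many of the 278 were tested is unknown. Of the 24, 15 were listed lower and 9 higher with a median log2 fold change of −0.23, beside 501 lower, 357 higher and a median of −0.12 over the whole authors' deposited table. Without the 4 members the counts were 13 and 7. Of the 24, at an unadjusted p under 0.01 more were higher, with 2 lower and 4 higher, the member DGAT2 among the latter. These are few genes. Of all genes tested, 191 (2.5%) passed that threshold, and their directions were not counted, so the 2 counts have no reference. No gene of the 24 passed an adjusted p of 0.05, and the authors' deposited table gives them adjusted values from 0.308 to 0.442. GRAMD1B was the 1 gene of the 24 at 1 or more on the log2 scale, and of the rest SCD and SCARB2 were at −0.5 or below.

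Around SCD, the counts of listed genes are to be read against the 11.2% of all tested genes that were listed, and how many of each list were tested is unknown. Of 15 fatty acid synthesis genes, SLC25A1, the mitochondrial citrate carrier that supplies the carbon, was the 1 in the authors' deposited table, with a log2 fold change of −0.10 (p = 0.0243). The fatty acid synthase gene FASN and the carboxylase genes ACACA and ACACB were not listed. SCD was the 1 listed gene of 18 in desaturation and elongation, and the desaturases FADS1, FADS2 and FADS3 and the 7 ELOVL elongases were not listed. For uptake and activation, the authors' deposited table holds 3 of 20 genes, all higher by small amounts on the log2 scale. They are the acyl-CoA binding protein DBI (0.17), the mitochondrial acyl-CoA synthetase ACSF2 (0.18) and the Golgi acyl-CoA binding domain protein ACBD3 (0.11). ACSF3, which shares a family name with ACSF2 but is in none of the lists, was lower in the authors' deposited table (−0.32, p = 0.00917).

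Around DGAT2, no other gene of the 22 in the triglyceride synthesis list was in the table, including the glycerol acyltransferase gene GPAM and the lipin genes. For lipid droplets and lipolysis, the authors' deposited table holds 2 of 24 genes, both lower, beside 11.2% of all genes tested. ABHD5, the coactivator of the triglyceride lipase PNPLA2, was at a log2 fold change of −0.43 (p = 0.0385) in the authors' deposited table. LIPA, the lysosomal lipase that splits cholesteryl esters and triglycerides, was at −0.30 (p = 0.0322) in the authors' deposited table. The adjusted p was 0.432 for both ABHD5 and LIPA in the authors' deposited table, where 58.4% of all listed genes were lower.

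Around MSMO1, the authors' deposited table holds 2 of 24 cholesterol synthesis genes, both lower, beside 11.2% of all genes tested. The other was GGPS1, which makes the geranylgeranyl group used to anchor small GTPases, on a branch that leaves the route to sterols, with a log2 fold change of −0.35 (p = 0.0324) in the authors' deposited table. The squalene epoxidase gene SQLE, and NSDHL and HSD17B7, which act with MSMO1 in the same demethylation, were not listed. None of the 18 genes of SREBP control was listed, among them SREBF1, SREBF2, SCAP and INSIG1. Absence from the table leaves 2 cases that cannot be told apart here, a p of 0.05 or more and a gene that was not tested.

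**Figure D3:**
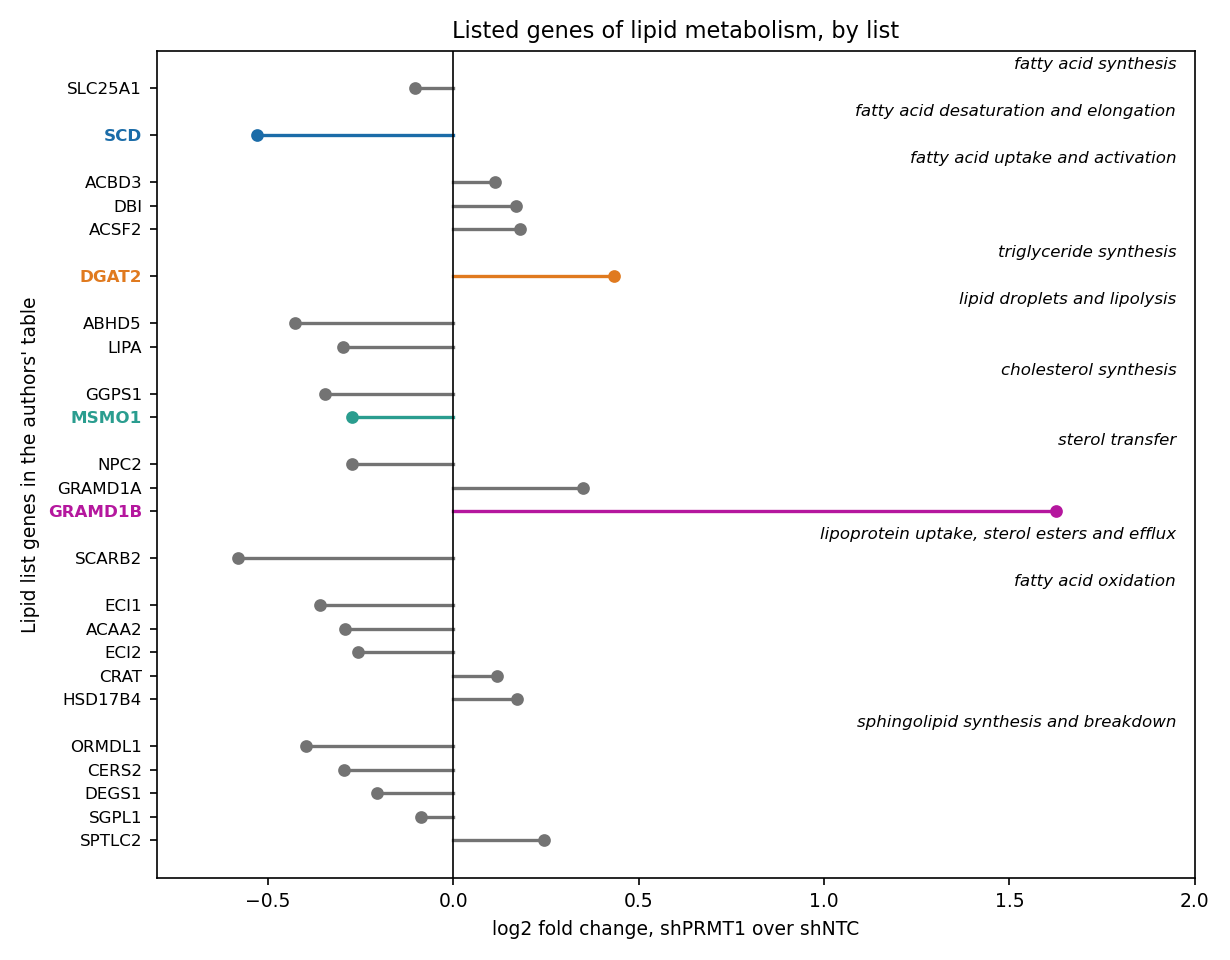
Log2 fold change of shPRMT1 over shNTC (x axis) in the authors' deposited table for the 24 listed genes of lipid metabolism, grouped by list (italic headings), with the 4 members in colour. GRAMD1B (1.63) extends furthest, GRAMD1A (0.35) lies on the same side, and SCARB2 (−0.58) and SCD (−0.53) have the lowest values; the lists for SREBP control and phospholipid synthesis had no listed gene and are not drawn.

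Direction in the table varied with transcript length, so the members were placed among the 846 genes matched to GENCODE 29 in 5 groups of increasing longest transcript. DGAT2 (5926 nt) and GRAMD1B (7723 nt) fell into the longest group. There 37.9% of genes were listed lower and the median log2 fold change was 0.17 in the authors' deposited table. Their principal transcripts are shorter, at 2453 nt for DGAT2 and 2814 nt for GRAMD1B. Such lengths lie in the ranges of the second shortest and the middle group, with 76.3% and 63.9% lower. Those groups were made by longest transcript, so these are not the shares of genes with principal transcripts of such lengths. The placement of these members thus depends on which transcript is taken. MSMO1 (2269 nt) fell into the second shortest group, with 76.3% lower and a median of −0.24, near its own −0.27 in the authors' deposited table. SCD (5362 nt) fell into the second longest group, with 47.9% lower and a median of 0.07, and its −0.53 in the authors' deposited table lay on the other side of 0. The part of length in the members' values was not tested.

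**Figure D4:**
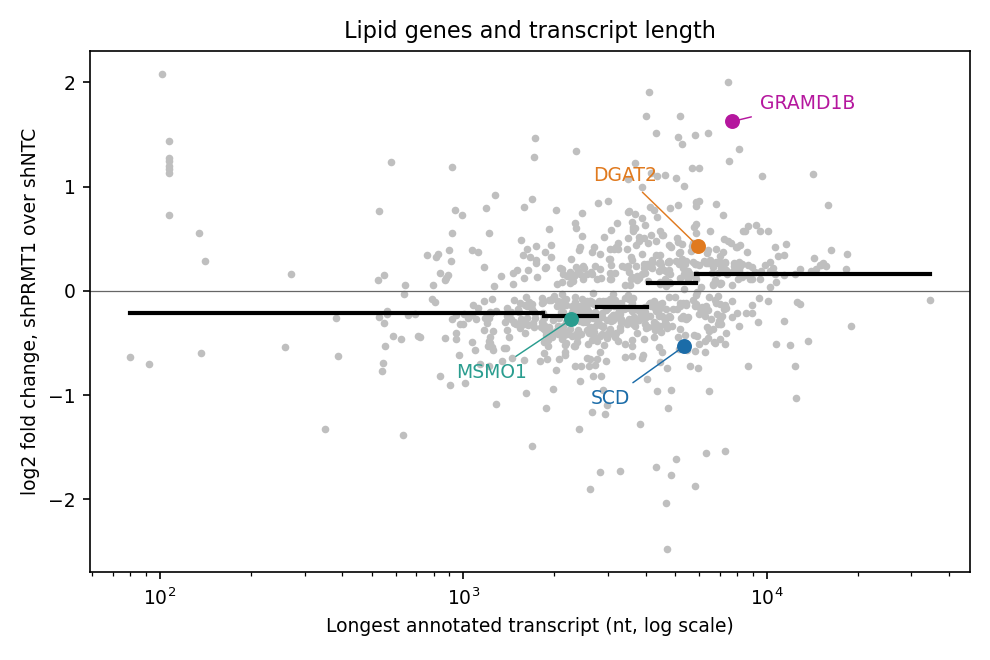
The x axis is the longest annotated transcript in nt on a log scale and the y axis is the log2 fold change of shPRMT1 over shNTC, for the 846 matched genes of the authors' deposited table (grey) and the 4 members (coloured). Black bars are the medians of 5 equal groups of genes by length; MSMO1 (−0.27) sits at the bar of its group (−0.24), SCD (−0.53) below its bar (0.07), and DGAT2 (0.43) and GRAMD1B (1.63) above theirs (0.17).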

How the data were processed

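Total RNA of 2 shPRMT1 and 2 shNTC samples was sequenced; the labels' extraction text also describes a chromatin immunoprecipitation, which does not belong to an RNA library. The submitters' processing notes name the build hg19 and, without roles, deepTools, edgeR 3.36.0, StringTie 2.2.1, HISAT2 2.2.1 and Trim Galore 0.6.7. The authors deposited, per gene, a p-value, its adjusted value, a fold change (ratio) and the log2 of that ratio. Their normalization, their test and how tested genes were chosen: not given in the sources used here. All listed p-values are under 0.05. Depth per sample is therefore unknown, and no interval or test of samples was computed.

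How many genes were tested was computed from p, rank and adjusted p, with 7640 obtained, within 0.01, from 52 of the 53 runs of tied adjusted values. This step was tested on simulated data. List genes were matched by symbol or Ensembl identifier. Promoter windows came from RefSeq (GRCh38.p14), and transcript numbers and lengths from GENCODE 29, matched for 98.6% of genes. Both are on another build than hg19, so no coordinates of the authors' features are given. The members and the lists were chosen with earlier results of these data known. Named genes are the members, PRMT1, listed genes of the lists and the nearest protein-coding genes in the order of log2 fold change. Other named genes were picked after the table was seen. They are ACSF3, genes named as not listed, the pseudogene and antisense genes of the annotation, and genes named as background to a function. Python 3.11.15 with numpy 2.4.6, pandas 2.3.3 and matplotlib 3.10.9 was used. Alternatives were other thresholds, a common offset, other centring and other list definitions.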

Additional observations from a re-analysis of the deposited data

How the results depend on the processing

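The offsets tried were smaller than every member's value, so they could move the values and turn no direction. With every log2 value of the authors' deposited table raised by 0.1, SCD was at −0.43, MSMO1 at −0.17, DGAT2 at 0.53 and GRAMD1B at 1.73, and with every value lowered by 0.1 they were at −0.63, −0.37, 0.33 and 1.53. With the median of the table (−0.12) subtracted they were at −0.40, −0.15, 0.56 and 1.75. That median is of the listed genes only, all with p under 0.05, so it is not the centre of all genes tested. The count of members called was 0 at an adjusted p under 0.05, beside 0.0131% of the genes tested. It was 4 at an unadjusted p under 0.05 (11.2% of the genes tested) and 1 at an unadjusted p under 0.01 (2.5%). At p under 0.05 it was 2 with 0.5 or more from 0 on the log2 scale (2.67%) and 1 with 1 or more (0.759%). The thresholds set these counts. Of the lipid list genes, 15 lower and 9 higher became 4 and 3 in the lists that hold a member and 2 and 4 at p under 0.01. Both settings count fewer genes by construction. At p under 0.01 the larger count was on the higher side, over few genes that include DGAT2. Without the directions of all genes at that threshold, that difference cannot be read as particular to lipid genes, and its cause was not tested. They were 14 and 10 with the raised values. Leaving the members out was chosen after seeing the data and gave 13 and 7. No paired analysis was possible because the table holds no values of single samples, and for the same reason no replicate could be left out.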

Other observations

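Listed genes of fatty acid oxidation and of sphingolipids stood on both sides. The authors' deposited table holds 5 of 31 oxidation genes. Counts of listed genes here are to be read against the 11.2% of all tested genes that were listed. How many genes of each list were tested is unknown. The enoyl-CoA isomerases ECI1 (log2 fold change −0.36, p = 0.0223) and ECI2 (−0.26, p = 0.0255), which reposition the double bonds of unsaturated fatty acids so that they can be oxidised, were listed lower in the authors' deposited table. The mitochondrial thiolase ACAA2 was also lower (−0.29, p = 0.0183), whereas the peroxisomal enzyme HSD17B4 (0.17, p = 0.00965) and the carnitine acetyltransferase CRAT (0.12, p = 0.00546) were higher in the authors' deposited table. Of 32 sphingolipid genes, the authors' deposited table holds 5. A subunit of the enzyme that starts sphingolipid synthesis, SPTLC2, was higher at 0.24, and ORMDL1, of the family that restrains that enzyme, was lower at −0.40 in the authors' deposited table. The ceramide synthase CERS2 (−0.29), the dihydroceramide desaturase DEGS1 (−0.20) and the sphingosine phosphate lyase SGPL1 (−0.09) were lower in the authors' deposited table. None of these 10 genes had an adjusted p under 0.05, and none of the 28 phospholipid synthesis genes was in the table.

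In the list of lipoprotein uptake, sterol esters and efflux, 1 of 20 genes was listed, beside 11.2% of all genes tested. For this gene, SCARB2, a lysosomal membrane protein that delivers glucocerebrosidase, the authors' deposited table gives −0.58 on the log2 scale (p = 0.0221, adjusted p = 0.432).

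In the order of log2 fold change, over a single comparison, the nearest protein-coding genes to SCD were MFSD11 (−0.53) and CYB5D2 (−0.53) in the authors' deposited table. MSMO1 lay between DNAJA2 (−0.28) and NPC2 (−0.27), DGAT2 between GNPTAB (0.43) and ASCC3 (0.44), and GRAMD1B between BCOR (1.52) and SLC17A9 (1.68) in the authors' deposited table.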
